A study of Mus musculus with 171 samples.

Results

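The data are counts of sequencing reads per gene in 171 single cells of early mouse embryos, and the genes described are 10 histone demethylases that use alpha-ketoglutarate as a co-substrate: Kdm2a, Kdm2b, Kdm3a, Kdm3b, Kdm4a, Kdm4b, Kdm4c, Kdm5a, Kdm5b and Kdm6b. They are 10 of the 49671 rows of the count table, found by matching Ensembl identifiers to gene symbols; the matching uses no measured value, but the family was picked with earlier results of these data known. The study compared embryos labelled Stat3 -/- (MUT) with embryos labelled Stat3 +/+ (WT); STAT3 is a transcription factor that acts downstream of the cytokine LIF and helps to maintain naive pluripotency. At embryonic day (E) 3.5, inner cell mass (ICM) cells came from 5 MUT embryos (55 cells) and 5 WT embryos (64 cells). At E3.75, cells labelled epiblast (EPI), which forms the fetus, and primitive endoderm (PrE), which forms yolk sac endoderm, came from 4 MUT embryos (9 EPI and 14 PrE cells) and 3 WT embryos (19 EPI and 10 PrE cells). The titles of these later cells say E3.75 while their source label says E3.5, and the titles are followed here. Strain, how the Stat3 allele was made, the library method and how cells were assigned to EPI or PrE are not stated.

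Histone demethylases of this family carry a JmjC domain that oxidizes the methyl group with iron, oxygen and alpha-ketoglutarate, a metabolite of the TCA cycle, and releases succinate and formaldehyde. Each enzyme prefers certain lysines of histone H3. Methylation of lysine 4 (H3K4) marks promoters and enhancers, methylation of lysine 36 (H3K36) marks transcribed gene bodies, and methylation of lysine 9 (H3K9) or 27 (H3K27) accompanies silent chromatin. In the early embryo and in embryonic stem cells such enzymes are known for setting how easily silent genes can be activated, and their dependence on alpha-ketoglutarate links chromatin to metabolism; the series is titled for metabolic control of gene expression in naive pluripotent cells.

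Total counts per cell ran from 163822 to 25095390, and E3.75 cells were more deeply sequenced than ICM cells (group medians of 10407966 to 11168799 against 3404703 in MUT and 5064704.5 in WT ICM). Counts were summed per embryo and lineage into 24 sums of 17 embryos, and the embryo is the replicate, so p-values measure the spread between these embryos only. Only 1 cell stands behind the EPI sum of MUT embryo 2, and likewise behind the PrE sum of WT embryo 3. By Y-linked and Xist reads, 4 of 4 MUT and 1 of 3 WT embryos of E3.75 were male (WT embryo 3), so that sex and genotype largely coincide there; at E3.5, 1 of 5 MUT and 3 of 5 WT embryos were male. Stat3 itself was lower in MUT, with means ± SD of 6.28 ± 5.57 against 70.6 ± 24.98 CPM in the ICM (CPM, counts scaled to a common library size by TMM, the trimmed mean of M-values; n = 5 embryos each), 8.76 ± 12.3 (n = 4) against 133 ± 42.5 (n = 3) in EPI, and 12.7 ± 5.79 (n = 4) against 91.6 ± 59.2 (n = 3) in PrE. Summed CPM of 8 EPI markers was 1547 to 3731 over the EPI sums and 53.6 to 1555 over the PrE sums, and that of 10 PrE markers was 78.9 to 229 and 1250 to 4036, so PrE markers separated the labelled lineages, while EPI markers overlapped between the PrE of WT embryo 1 (1555) and the EPI of MUT embryo 1 (1547). Trophectoderm markers summed to at most 1049 CPM except in the WT PrE of embryo 1 (4095). In that sum EPI markers (1555) also exceeded PrE markers (1250).

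Per length of exon, Kdm5b and Kdm3a had the highest levels and Kdm4a the lowest. Averaged over the 6 group means, Kdm5b stood at 12.7 CPM per kb of exon, Kdm3a at 10.3, Kdm6b at 4.91, Kdm2b at 4.40 and Kdm4c at 3.747. Below them came Kdm5a at 2.46, Kdm4b at 2.26, Kdm3b at 1.25, Kdm2a at 0.858 and Kdm4a at 0.672. The first and second places, and those of Kdm5a, Kdm2a and Kdm4a, were the same when the longest transcript replaced the union of exons as the length; the other 5 genes changed place among themselves. The group with the highest mean differed between genes: Kdm5b was highest in EPI, Kdm6b in WT PrE and Kdm5a in WT ICM.

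**Figure D1:**
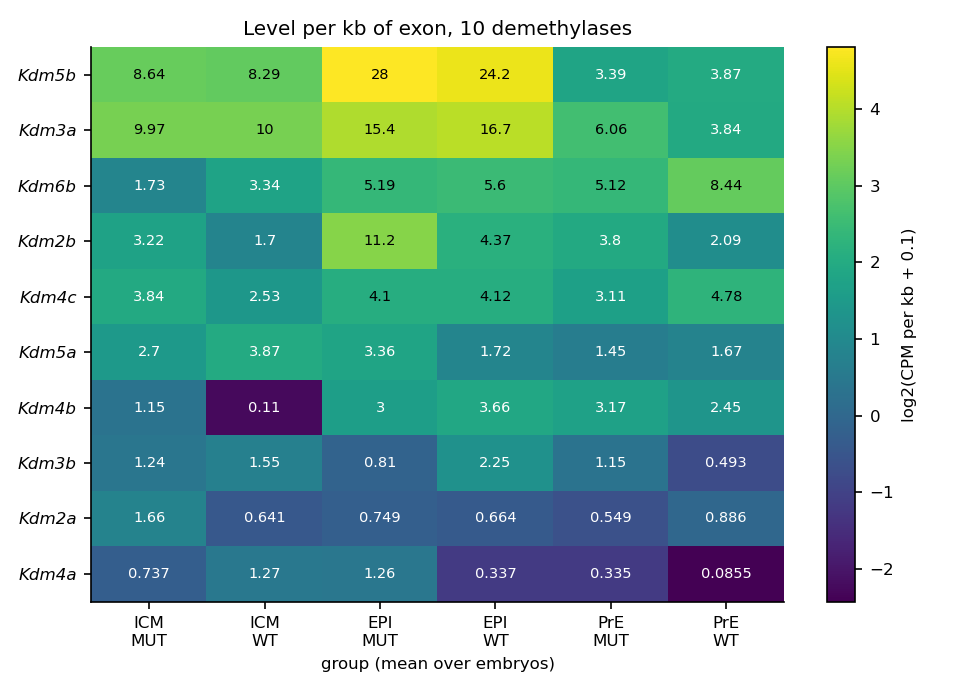
Mean level per kb of exon of the 10 demethylases (rows, in order of their overall mean) in the 6 groups (columns); each cell prints CPM per kb averaged over embryos and the colour is its log2 after adding 0.1. Kdm5b reaches 28.02 in MUT EPI and 24.2 in WT EPI, while Kdm4a stays at or below 1.27 in all 6 groups.

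In single cells the family was detected unevenly. At least 1 read of Kdm5b was found in 170 of 171 cells, of Kdm6b in 167, of Kdm3a in 166, of Kdm5a in 158 and of Kdm2b in 154. Reads of Kdm4b were found in 92 cells and of Kdm4a in 67. After each cell was thinned to 500000 reads, which left out 7 shallower ICM cells (5 MUT and 2 WT), the shares of cells with a read were 97.6% for Kdm5b (99.4% unthinned), 86.6% for Kdm3a (97.1%), 37.2% for Kdm4b (53.8%) and 26.2% for Kdm4a (39.2%). At that common depth the median cell held reads of 6.5 of the 10 genes in MUT ICM, 6 in WT ICM, 8 in MUT and WT EPI, 7 in MUT PrE and 8.5 in WT PrE. The spread between cells was wide in the ICM: the coefficient of variation of Kdm5b was 1.32 over MUT and 1.38 over WT cells there, against 0.345 and 0.327 over EPI cells. Depth and the number of embryos differ between these groups, and their part in the spread was not tested.

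**Figure D2:**
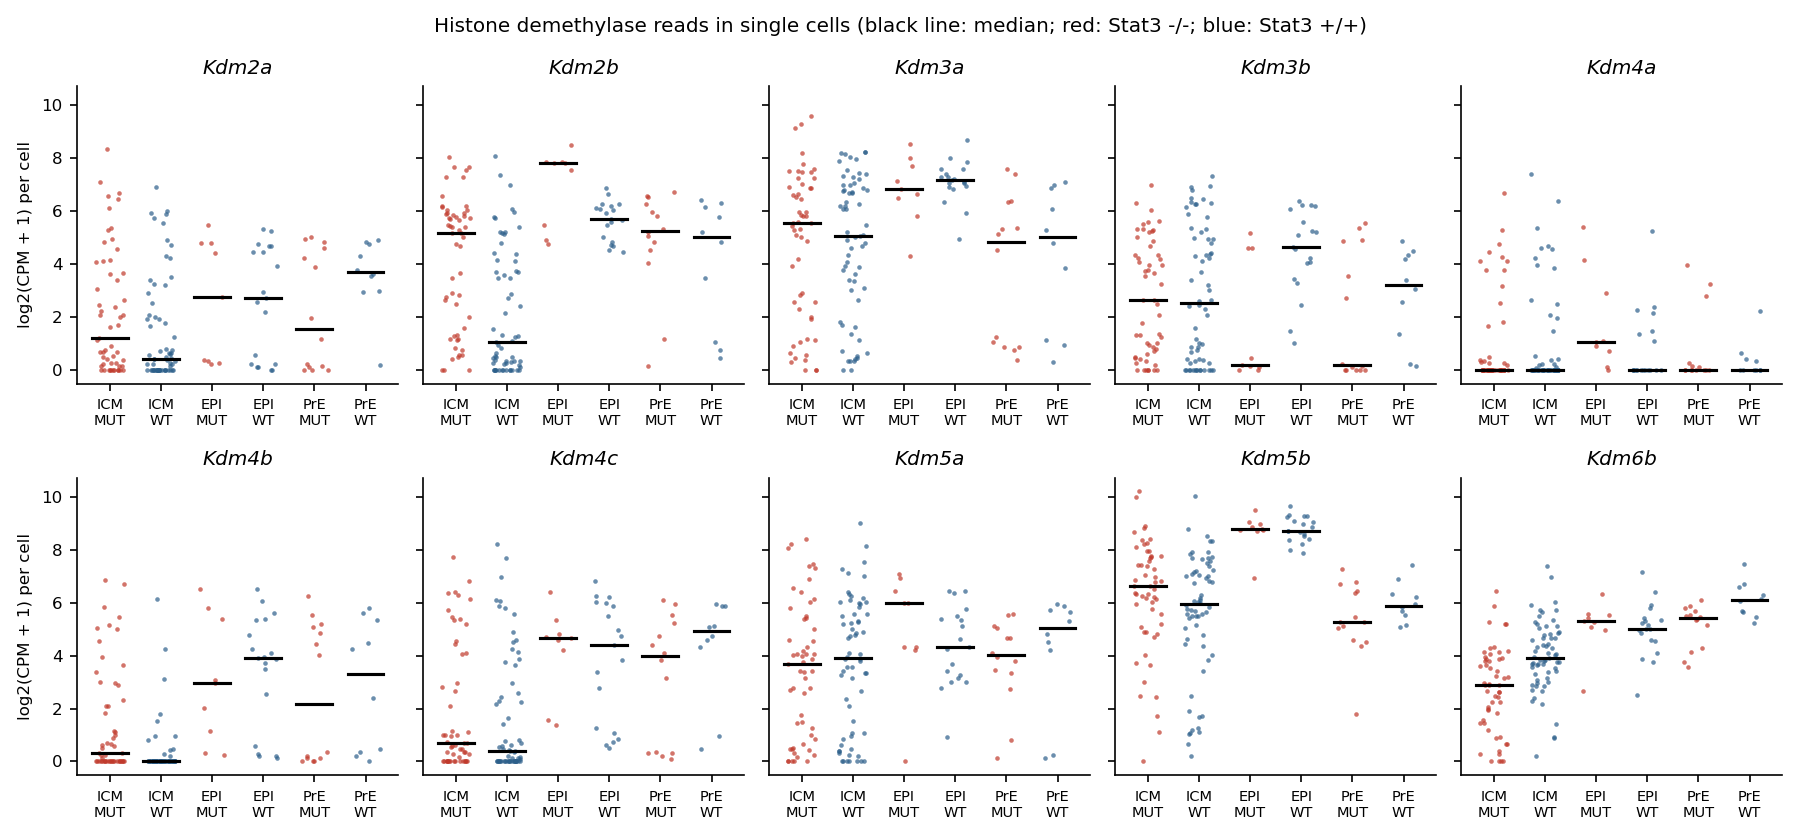
Each point is 1 cell, with log2(CPM + 1) of 1 demethylase on the vertical axis and the 6 groups on the horizontal axis (red MUT, blue WT; black line, median). Kdm5b forms a tight high band in EPI (medians of 435 CPM in MUT and 420 in WT) and a lower one in PrE (37.5 and 58.4), while Kdm2b in the ICM has a median of 35.3 CPM in MUT and 1.097 in WT.

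Promoter sequences were found for 5 of the 10 genes in the RefSeq table of GRCm38.p6, which covers 250 bases before to 50 bases after each annotated start: 1 for Kdm5b and Kdm4a, 2 for Kdm4c, 3 for Kdm3a and 4 for Kdm2b, 11 in all. The STAT motif TTCNNNGAA, which is its own reverse complement, was searched in all of them because the embryos differ in Stat3. It was present in 1 of the 11, against 2726 of 32851 promoters in the whole table (8.30%). That promoter belongs to an internal start of Kdm3a, within the gene on chromosome 6, minus strand, with the motif starting at position -219 from the start. Its first 200 bases are printed here with the motif in capitals (chr6:71609190-71609389, minus strand), beside the same stretch of the Kdm5b promoter (chr1:134559928-134560127, plus strand), since Kdm5b is the gene that differed most between the lineages. Both read 5′ to 3′ from the window's first base and end 51 bases before the start.
Kdm3a internal promoter: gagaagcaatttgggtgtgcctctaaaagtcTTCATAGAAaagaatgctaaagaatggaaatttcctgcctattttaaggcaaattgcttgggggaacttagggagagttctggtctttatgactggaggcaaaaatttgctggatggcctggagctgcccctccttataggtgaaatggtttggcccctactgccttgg
Kdm5b promoter: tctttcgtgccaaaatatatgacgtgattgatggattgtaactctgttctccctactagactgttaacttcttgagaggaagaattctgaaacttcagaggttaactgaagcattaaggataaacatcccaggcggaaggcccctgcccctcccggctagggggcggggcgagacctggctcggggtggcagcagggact
The Kdm5b window of 300 bases holds no TTCNNNGAA and 17 CpG dinucleotides, and the Kdm3a window holds none of the latter. A match of letters is a description and does not show that a factor binds there.

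The 2 H3K4 demethylases are Kdm5a and Kdm5b, which remove methyl groups from H3K4 and so act against a mark of active promoters. Kdm5b (chromosome 1, 134560171 to 134635285, plus strand, mm10) was the one gene of the family that passed edgeR's test on the embryo sums in any comparison. In MUT EPI it stood at 412, 708, 344 and 391 CPM in embryos 1, 2, 4 and 5, and in MUT PrE of the same embryos at 101, 26.4, 55.5 and 42.0. In WT embryos 1, 2 and 3 it stood at 338, 384 and 480 CPM in EPI and at 78.4, 58.2 and 55.9 in PrE. EPI was higher in 7 of 7 embryos, with an EPI to PrE ratio of 4.09 to 26.9 (median 6.61), and no EPI sum overlapped a PrE sum; over all genes with a mean of at least 1 CPM in these sums, EPI was higher in all 7 embryos for 522 of 12653 (4.13%). The largest ratio is that of MUT embryo 2, whose EPI is a single cell.

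Between EPI and PrE, the log2 fold change of Kdm5b in MUT was 3.07 (SE 0.44; edgeR quasi-likelihood test, adjusted p = 0.00871 over all genes tested), or 8.38-fold. It was thus 1 of 10 demethylases called, where 1.65% of all genes tested were called in that comparison. With the embryo as a block, which pairs EPI and PrE of the same embryo, the value was 3.15 (SE 0.49) with an edgeR adjusted p of 0.0756, which misses the threshold of 0.05. Leaving out each embryo's EPI or PrE in turn gave 2.78 to 3.504, with adjusted p from 0.00714 to 0.0444. In WT the log2 fold change was 2.65 (SE 0.24), or 6.27-fold, and its edgeR adjusted p of 0.0507 missed the threshold; 0.0314% of genes were called there. It was 0.0447 with DESeq2's size factors, 0.00941 with no filter on low counts, 6.31e-18 with DESeq2, and 0.0346 with limma-trend; on simulated sums of this design DESeq2 called many unchanged genes, so its p values and counts here and later are alternatives only. Leaving out each WT sum in turn gave 2.49 to 2.82, with edgeR adjusted p from 0.0436 to 0.322, the lowest without the PrE of embryo 1, the sum with the high trophectoderm markers. With the embryo as a block it was 0.275. The difference between the genotypes in this contrast was 0.39 (SE 0.53; edgeR adjusted p = 0.99997).

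The separation was also seen cell by cell. All 19 WT EPI cells, from 231 CPM upward, lay above the highest of the 10 WT PrE cells (171 CPM). In MUT, 8 of 9 EPI cells lay above the highest of 14 PrE cells (155 CPM), and the lowest EPI cell stood at 121. Cells of 1 embryo are not replicates, so these counts carry no test.

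Against the ICM, Kdm5b was higher in EPI and lower in PrE on average, but neither passed the test. ICM sums of MUT embryos 2, 10, 18, 23 and 24 stood at 78.1, 240.2, 141, 127 and 129 CPM, and those of WT embryos 13, 16, 20, 21 and 22 at 178, 48.7, 204, 63.0 and 192. All EPI sums lay above all ICM sums of their genotype, while the PrE sums overlapped them. The log2 fold change from ICM to EPI was 1.55 in WT (SE 0.48, edgeR adjusted p = 0.187) and 1.69 in MUT (SE 0.40, adjusted p = 0.178); DESeq2 gave 0.00485 and limma-trend 0.0142 for the latter. The change to PrE was -1.09 in WT (SE 0.55, edgeR adjusted p = 0.398) and -1.36 in MUT (SE 0.49, adjusted p = 0.329). Between genotypes Kdm5b differed by 0.04 in the ICM (SE 0.48), 0.21 in EPI (SE 0.28) and -0.21 in PrE (SE 0.48) on the log2 scale, with edgeR adjusted p values of at least 0.995, and these small differences changed sign when single embryos were left out.

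Kdm5a, the second H3K4 demethylase, passed in no comparison. EPI was higher than PrE in 3 of 4 MUT embryos (ratios of 0.665, 2.42, 3.55 and 3.82 in embryos 1, 2, 4 and 5) and in 1 of 3 WT embryos, the one whose PrE is a single cell. The log2 fold change between lineages was 1.23 in MUT (SE 0.55; edgeR adjusted p = 0.499; 1.07 to 1.51 with each sum left out in turn) and 0.059 in WT (SE 1.482; adjusted p = 0.999). Its mean was 47.5 ± 20.8 CPM in MUT EPI (SD, n = 4), 24.4 ± 9.72 in WT EPI (n = 3), 20.5 ± 6.39 in MUT PrE (n = 4) and 23.6 ± 20.4 in WT PrE (n = 3). WT ICM sums ran from 32.4 to 116 CPM and lay above the WT EPI sums of 13.3 to 31.4. The log2 fold change there was -1.15 (SE 0.57; edgeR adjusted p = 0.417), and limma-trend on embryo means of log2 cell values, which weights the cells of an embryo equally, gave 0.52 instead. The PrE cell of WT embryo 3 held 0.08 CPM of Kdm5a. Its exons share 251 bases with Ccdc77 on the opposite strand, and the strand setting of the counting is not given, so reads could be shared.

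**Figure D3:**
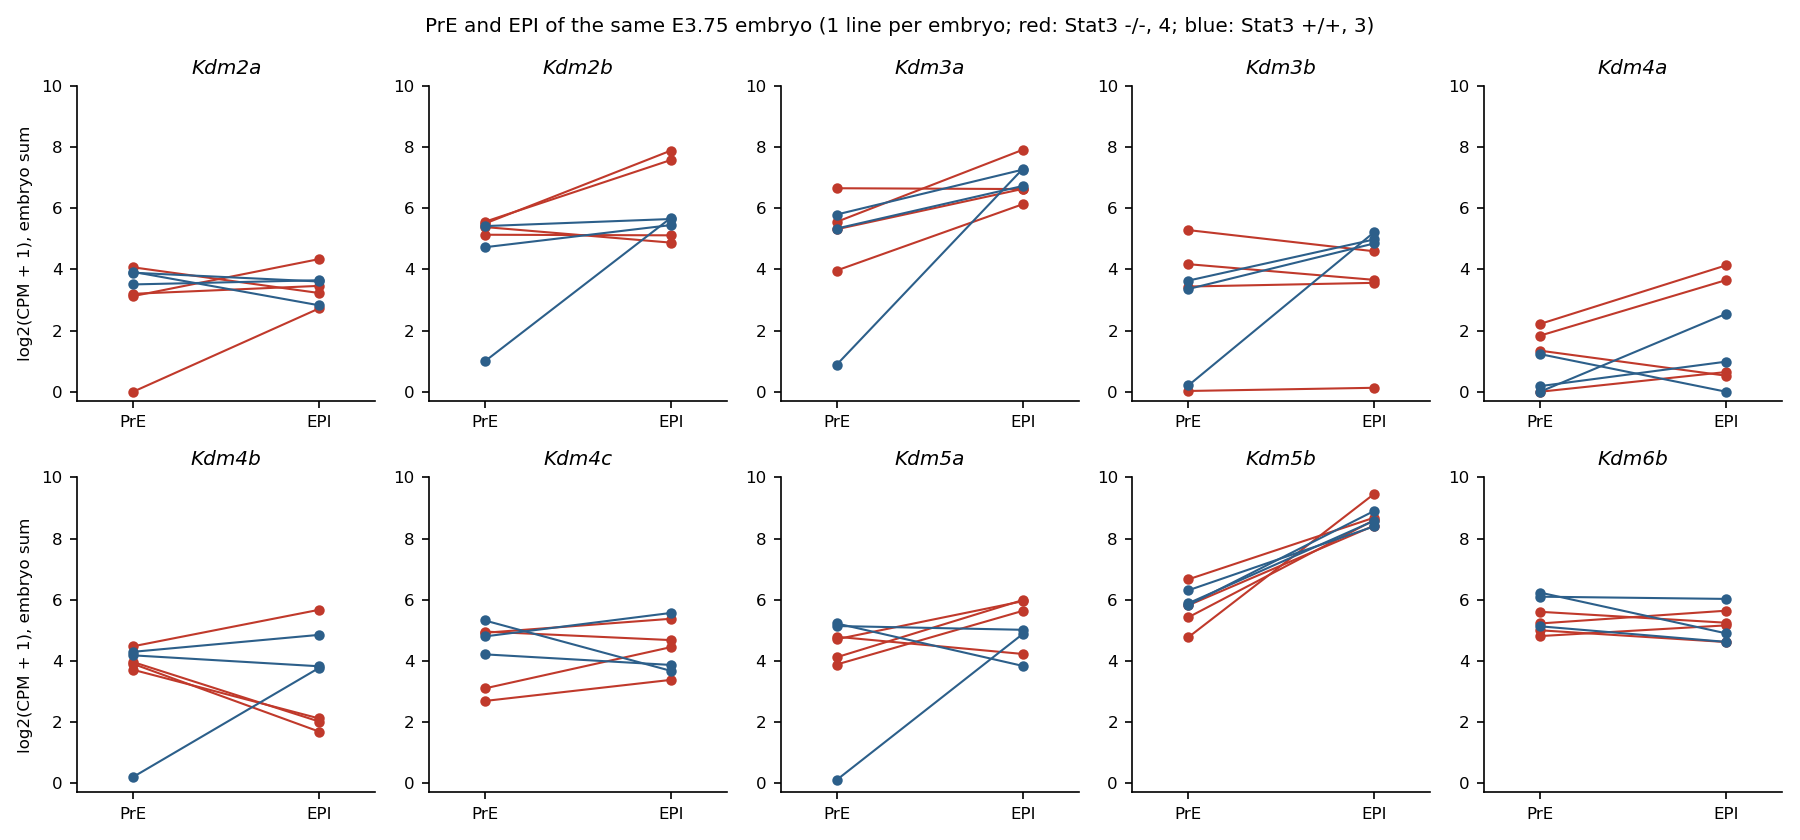
PrE and EPI values of the same E3.75 embryo joined by a line, 1 panel per demethylase, as log2(CPM + 1) of the embryo sum (red, 4 MUT embryos; blue, 3 WT embryos). All 7 lines climb for Kdm5b, 6 of 7 for Kdm3a and 2 of 7 for Kdm6b, and the PrE cell of WT embryo 3 lies at or below 0.99 CPM for 6 genes, among them Kdm2b, Kdm3a and Kdm5a.

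The H3K9 demethylases Kdm3a and Kdm3b remove mono- and dimethyl marks that accompany silent chromatin. Kdm3a (chromosome 6, 71588972 to 71632990, minus strand, mm10) was higher in EPI than in PrE in 6 of 7 embryos. MUT EPI stood at 98.0, 98.3, 69.2 and 240 CPM in embryos 1, 2, 4 and 5, against 99.9, 38.8, 14.6 and 46.0 in PrE. WT EPI stood at 105, 153 and 155 CPM, against 39.4, 54.5 and 0.84 in PrE, the last being the single cell of embryo 3. The WT groups did not overlap, and in MUT the PrE of embryo 1 was higher than 3 of the 4 EPI sums. The log2 fold change was 2.13 in WT (SE 1.15; edgeR adjusted p = 0.737) and 1.36 in MUT (SE 0.60; adjusted p = 0.486, unadjusted p = 0.049), so neither passed. Mean ICM levels of the genotypes were 82.0 ± 53.8 CPM in MUT and 82.3 ± 29.4 in WT (SD, n = 5 each), and the log2 difference between them was -0.01 (SE 0.52), with a sign that changed under 3 other settings. Kdm3a is the gene whose internal promoter holds the STAT motif printed above.

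Kdm3b (chromosome 18, 34777047 to 34838660, plus strand, mm10) was lower in MUT than in WT EPI without overlap, the one such difference between genotypes in the family. MUT EPI stood at 11.6, 23.1, 0.09 and 10.8 CPM in embryos 1, 2, 4 and 5, and WT EPI at 27.9, 30.6 and 36.5. A lack of overlap with MUT lower was shown by 4.93% of all genes with a mean of at least 1 CPM in this comparison. The log2 fold change was -1.47 (SE 1.22; edgeR adjusted p = 0.9999), so the difference did not pass the test. Reads were present in 7 of 9 MUT and 19 of 19 WT EPI cells, and after thinning in 33.3% and 94.7%. Both lineages of MUT embryo 4 were near 0, with 0.09 CPM in EPI and 0.02 in PrE. Between lineages Kdm3b was higher in EPI in 3 of 3 WT embryos (log2 2.198, SE 1.27; edgeR adjusted p = 0.777) and in 2 of 4 MUT embryos. In its exons it shares 3468 bases with Gm26538 of the opposite strand, which held 285 reads in all against 21984 for Kdm3b.

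The H3K36 demethylases are Kdm2a and Kdm2b; both bind unmethylated CpG-rich DNA, and Kdm2b recruits a non-canonical Polycomb complex there. Kdm2b (chromosome 5, 122870665 to 122989823, minus strand, mm10) was much higher in EPI of 2 MUT embryos than in any other sum. In embryos 1, 2, 4 and 5 MUT EPI stood at 33.7, 28.4, 236 and 190.5 CPM, and WT EPI at 42.8, 49.2 and 50.6. PrE values were closer together, at 34.1, 40.8, 44.2 and 46.2 CPM in MUT and 25.5, 41.7 and 0.99 in WT. Thus embryos 4 and 5 were high in EPI and not in PrE. All 6 EPI cells of these embryos lay between 186 and 363 CPM, and the 3 EPI cells of MUT embryos 1 and 2 between 25.8 and 43.2. Embryos 4 and 5 carry the letter A in their titles, as does WT embryo 3, and MUT embryos 1 and 2 carry B; what the letter stands for is not stated in the labels. Within letter A the median of MUT EPI cells was 227 CPM (6 cells, 2 embryos) and that of WT EPI cells was 65.0 (7 cells, 1 embryo), and for letters B and C there is 1 genotype each. The fitted difference between MUT and WT EPI was 1.36 (SE 0.77; edgeR adjusted p = 0.9999), so the genotypes did not differ beyond their spread.

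In the ICM, Kdm2b was skewed by 1 embryo. MUT sums of embryos 2, 10, 18, 23 and 24 stood at 11.1, 97.6, 26.6, 16.4 and 23.3 CPM, and WT sums of embryos 13, 16, 20, 21 and 22 at 13.03, 22.7, 14.1, 31.4 and 11.2. Embryo 10, which gave 19 of the 55 MUT cells, was the high one, and the other 4 MUT sums lay within the range of WT or just below it. PrE markers of embryo 10 summed to 3001 CPM, against 102 to 864 in the other MUT and 246 to 916 in the WT ICM sums. The part of this in its Kdm2b level was not tested. The log2 difference was 0.91 (SE 0.74; edgeR adjusted p = 0.894), and 0.10 without embryo 10. Per cell, the median within an embryo was 10.1, 60.1, 5.31, 1.36 and 5.16 CPM in MUT and 1.08, 0.39, 1.26, 1.52 and 6.39 in WT, with 3 of 5 MUT medians between the lowest and highest WT medians. The cell medians within each of the 5 title letters of the ICM were higher in MUT in 5 of 5, at 18.9 to 51.4 CPM against 0.25 to 35.9. The letters are not replicates: MUT embryo 10 has cells in each of them, and WT letter G holds 3 cells. These medians therefore carry no test. From ICM to EPI the log2 fold change was 1.37 in WT (SE 0.50; edgeR adjusted p = 0.257) and 1.80 in MUT (SE 0.79; adjusted p = 0.578), with unadjusted p values of 0.022 and 0.040. Kdm2b exons share 627 bases with Rnf34 on the opposite strand, which held 77295 reads against 57126.

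Kdm2a stood at low levels throughout, with group means from 7.94 to 23.9 CPM. The highest mean, in MUT ICM, came from embryos 2 and 10 (56.3 and 48.2 CPM), while the other 3 stood between 0.91 and 8.71. No comparison of Kdm2a passed the test, and the log2 differences between genotypes were 1.38 (SE 1.05) in the ICM, 0.17 (SE 0.92) in EPI and -0.71 (SE 1.64) in PrE, with edgeR adjusted p values of 0.882 to 0.99999. In the PrE of MUT embryo 2 no read was found, which allows up to 0.144 CPM (3 counts; counting error only).

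**Figure D4:**
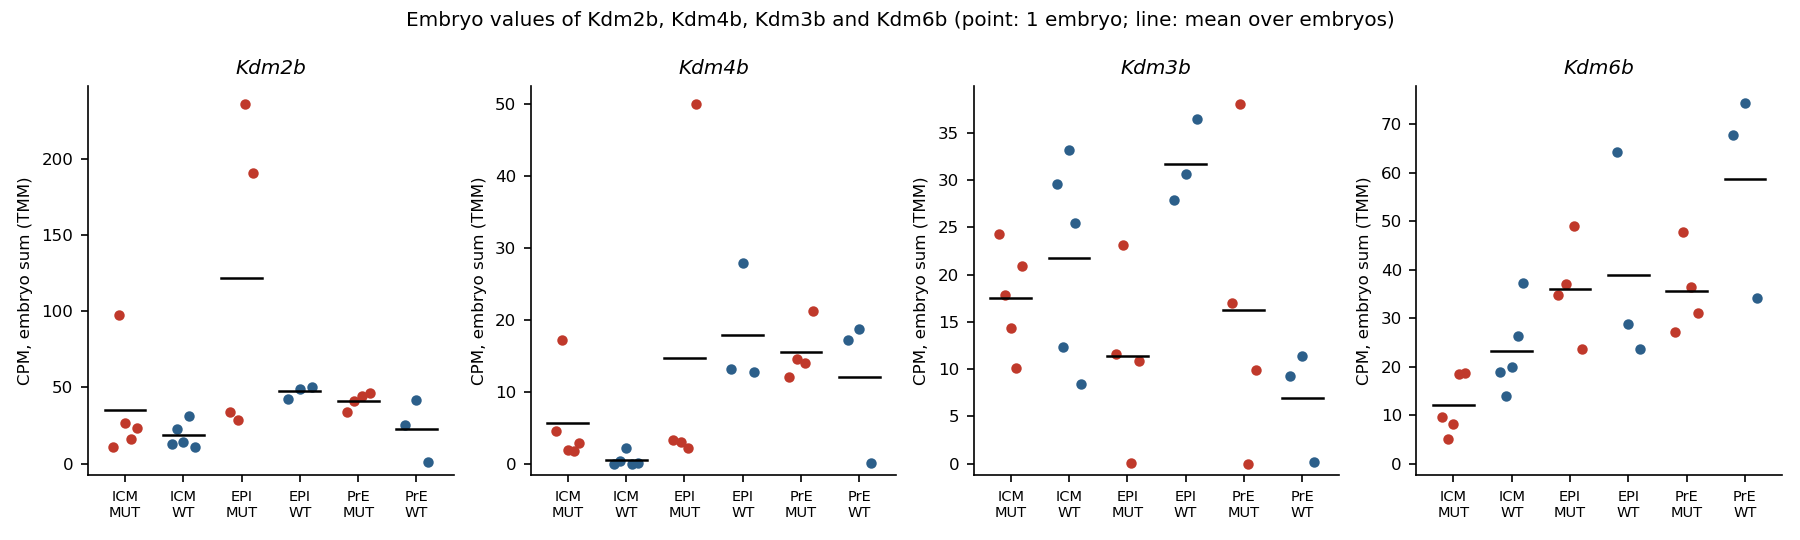
CPM of Kdm2b, Kdm4b, Kdm3b and Kdm6b in every embryo sum (points; red MUT, blue WT; black line, mean over embryos) for the 6 groups. Kdm2b shows 2 MUT EPI points at 190.5 and 236 CPM, Kdm4b lies near 0 in WT ICM, Kdm3b in MUT EPI lies below WT EPI, and Kdm6b has its highest points in WT PrE (34.1 to 74.4).

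The Kdm4 enzymes remove tri- and dimethyl marks from H3K9 and H3K36. Kdm4b (chromosome 17, 56326062 to 56402870, plus strand, mm10) was nearly absent from WT ICM, where embryos 13, 16, 20, 21 and 22 stood at 0, 0.42, 2.17, 0.02 and 0.08 CPM; the 0 of embryo 13 allows up to 0.127 CPM. MUT ICM sums stood at 4.48, 17.2, 1.85, 1.82 and 2.92 CPM in embryos 2, 10, 18, 23 and 24, so all 5 were higher than 4 of the WT sums, and embryos 18 and 23 lay below WT embryo 20. The log2 difference was 3.37 (SE 1.65; edgeR adjusted p = 0.767), the smallest p of the family between genotypes in the ICM (unadjusted p = 0.059). Without MUT embryo 10 it was 2.39, and without WT embryo 20 it was 5.41. Of 55 MUT cells 32 held a read, and of 64 WT cells 12 (58.2% and 18.8%; 34.0% and 11.3% after thinning). By embryo, this was 4 of 5, 13 of 19, 12 of 17, 1 of 4 and 2 of 10 cells in MUT, and 0 of 7, 4 of 15, 4 of 14, 1 of 17 and 3 of 11 in WT. For 0 of 7, the limit of 3 divided by the number of cells is 42.9%, which is rough for so few cells of 1 embryo. In these sums EPI markers totalled 590 to 1451 CPM for MUT against 2341 to 3247 for WT. PrE markers totalled 102 to 3001 CPM for MUT, the highest being that of embryo 10, and 246 to 916 for WT. The part of these shifts in the Kdm4b difference was not tested.

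In WT, Kdm4b was higher in the EPI sums than in the ICM sums, while the PrE sums overlapped the ICM. WT EPI stood at 13.2, 27.9 and 12.7 CPM, above every WT ICM sum (log2 5.06, SE 1.69; edgeR adjusted p = 0.214, unadjusted p = 0.014). WT PrE stood at 17.2, 18.7 and 0.15 CPM, the last being the single cell of embryo 3 (log2 4.46, SE 2.06; edgeR adjusted p = 0.354). In MUT the EPI sums were 3.34, 3.05, 2.22 and 50.1 CPM, of which embryo 5 alone was high, and the PrE sums lay between 12.1 and 21.3. The difference of the ICM to EPI change between genotypes was -3.67 (SE 2.11; edgeR adjusted p = 0.642), and ran from -6.03 without MUT EPI embryo 5 to -2.65 without MUT ICM embryo 10 (adjusted p from 0.359 to 0.863 over the 17 sums left out in turn). None of these passed the threshold with edgeR, although limma-trend called Kdm4b from ICM to EPI of WT (adjusted p = 3.44e-04). The median of all genes in that comparison was 0.68 with limma-trend and -0.14 with edgeR.

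Kdm4a and Kdm4c showed no difference that passed. Kdm4c had group means from 14.7 to 27.8 CPM, and its sums ran from 0.69 CPM in WT ICM embryo 22 to 46.5 in WT EPI embryo 2. Kdm4a had group means from 0.49 to 7.37 CPM, and most of the highest ICM value, 24.8 CPM in WT embryo 22, came from 1 cell at 170 CPM among 11. No Kdm4a read was found in 4 of the 24 sums. WT PrE, at 1.35, 0.14 and 0 CPM, lay below every WT ICM sum (2.21 to 24.8), with a log2 difference of -3.88 (SE 2.003; edgeR adjusted p = 0.408).

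Kdm6b (chromosome 11, 69398508 to 69413675, minus strand, mm10) removes methyl groups from H3K27 and so acts against the Polycomb mark. Its mean was highest in WT PrE, 58.7 ± 21.6 CPM (SD, n = 3), and lowest in MUT ICM, 12.04 ± 6.24 (n = 5). The WT PrE sums include the single cell of embryo 3, and that of embryo 1, where EPI markers exceeded PrE markers. MUT ICM sums of embryos 2, 10, 18, 23 and 24 stood at 9.58, 5.15, 8.18, 18.6 and 18.7 CPM, and WT ICM sums of embryos 13, 16, 20, 21 and 22 at 18.98, 13.996, 19.8, 26.2 and 37.3. MUT EPI stood at 34.8, 37.1, 49.0 and 23.6 CPM and MUT PrE at 27.1, 47.8, 36.4 and 31.1, all above every MUT ICM sum. WT EPI stood at 64.3, 28.9 and 23.6 CPM and WT PrE at 67.7, 74.4 and 34.1, overlapping the WT ICM range. From ICM to PrE the log2 fold change was 1.35 in WT (SE 0.57; edgeR adjusted p = 0.305) and 1.57 in MUT (SE 0.70; adjusted p = 0.5003), with unadjusted p values of 0.039 and 0.044, and from ICM to EPI 1.56 in MUT (SE 0.78; adjusted p = 0.664). MUT differed from WT by -0.95 in the ICM (SE 0.75; edgeR adjusted p = 0.882) and by -0.74 in PrE (SE 0.42; adjusted p = 0.99999) on the log2 scale. None of these passed the test. Kdm6bos, on the opposite strand, shares 286 exon bases and held 214 reads against 34693.

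All 10 genes passed the filter on low counts in each of the 12 fits. In lineage comparisons 7 of 10 log2 fold changes were above 0 in WT and 8 of 10 in MUT, beside 51.7% and 50.8% of all genes tested. Their medians were 0.83 and 0.85, where all genes tested had medians of 0.03 and 0.02. In WT, 4 genes (Kdm2b, Kdm3a, Kdm3b and Kdm5b) were higher in EPI without overlap, against 10.1% of all genes in that direction, and in MUT 1 gene (Kdm5b), against 3.74%. The WT count includes Kdm2b, Kdm3a and Kdm3b, for which the single PrE cell of embryo 3 was near 0. No test of the family as a whole was made.

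From ICM to EPI, 8 of 10 log2 fold changes were above 0 in WT and in MUT, beside 45.4% and 47.2% of all genes tested. Their medians were 0.72 and 0.69, beside -0.14 and -0.06 for all genes tested. The 10 genes are read from the same sums, so these counts carry no test. Between stages, none of the 10 genes passed in the 4 comparisons by edgeR, where 0.308% (WT) and 0.0682% (MUT) of genes were called from ICM to EPI and 0.349% and 0.507% from ICM to PrE. Unadjusted p values were under 0.05 for 3 genes in WT EPI (Kdm2b, Kdm4b and Kdm5b), 2 in MUT EPI (Kdm2b and Kdm5b), 1 in WT PrE (Kdm6b) and 2 in MUT PrE (Kdm5b lower, Kdm6b higher), beside 14.1%, 8.08%, 14.8% and 9.46% of all genes. In the same order DESeq2 called 0, 1, 0 and 0 of the 10, beside 7.65%, 3.53%, 9.08% and 4.62% of all genes. Limma-trend called 5, 1, 3 and 0, beside 29% of all genes in WT EPI, 1.9% in MUT EPI, 15.7% in WT PrE and 5.23% in MUT PrE. Groups did not overlap for 4 genes from ICM to EPI in WT (Kdm2b, Kdm4b and Kdm5b higher, Kdm5a lower), against 15.1% of all genes, and for 2 in MUT (Kdm5b and Kdm6b higher), against 4.49%. For PrE it was 1 gene in WT (Kdm4a lower), against 14.3%, and 1 in MUT (Kdm6b higher), against 6.47%. The ICM sums are shared by the EPI and PrE comparisons of a genotype, and the stage comparisons also differ in depth and in title letters, so stage and letter cannot be told apart.

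Between genotypes no demethylase passed in the ICM, EPI or PrE by edgeR, at an unadjusted p under 0.05 or after adjustment, and DESeq2 and limma-trend called 0 of the 10 in each. Over all genes edgeR called 0% in each, and 6.64%, 4.63% and 4.63% of genes had an unadjusted p under 0.05. DESeq2 called 0.88%, 1.52% and 1.33% of genes and limma-trend 0.0163% in the ICM and 0% in EPI and PrE. The median log2 fold change of the 10 genes was 0.02 in the ICM, 0.09 in EPI and 0.07 in PrE, beside -0.05, 0.04 and 0.03 for all genes tested. SEs of single genes ran to 1.65 in the ICM, 2.23 in EPI and 2.12 in PrE on the log2 scale, so differences of several-fold could not be told from the spread between embryos for the least abundant genes, whereas for Kdm5b the SE was 0.28 to 0.48. With embryo sex in the model, Kdm2b (5.33, edgeR adjusted p = 0.0412) and Kdm5a (7.97, adjusted p = 0.0444) passed in PrE; that fit sets genotype against the single PrE cell of the 1 male WT embryo, in which both genes were near 0. The 3 interaction contrasts called none of the 10, and 0% of all genes.

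**Figure D5:**
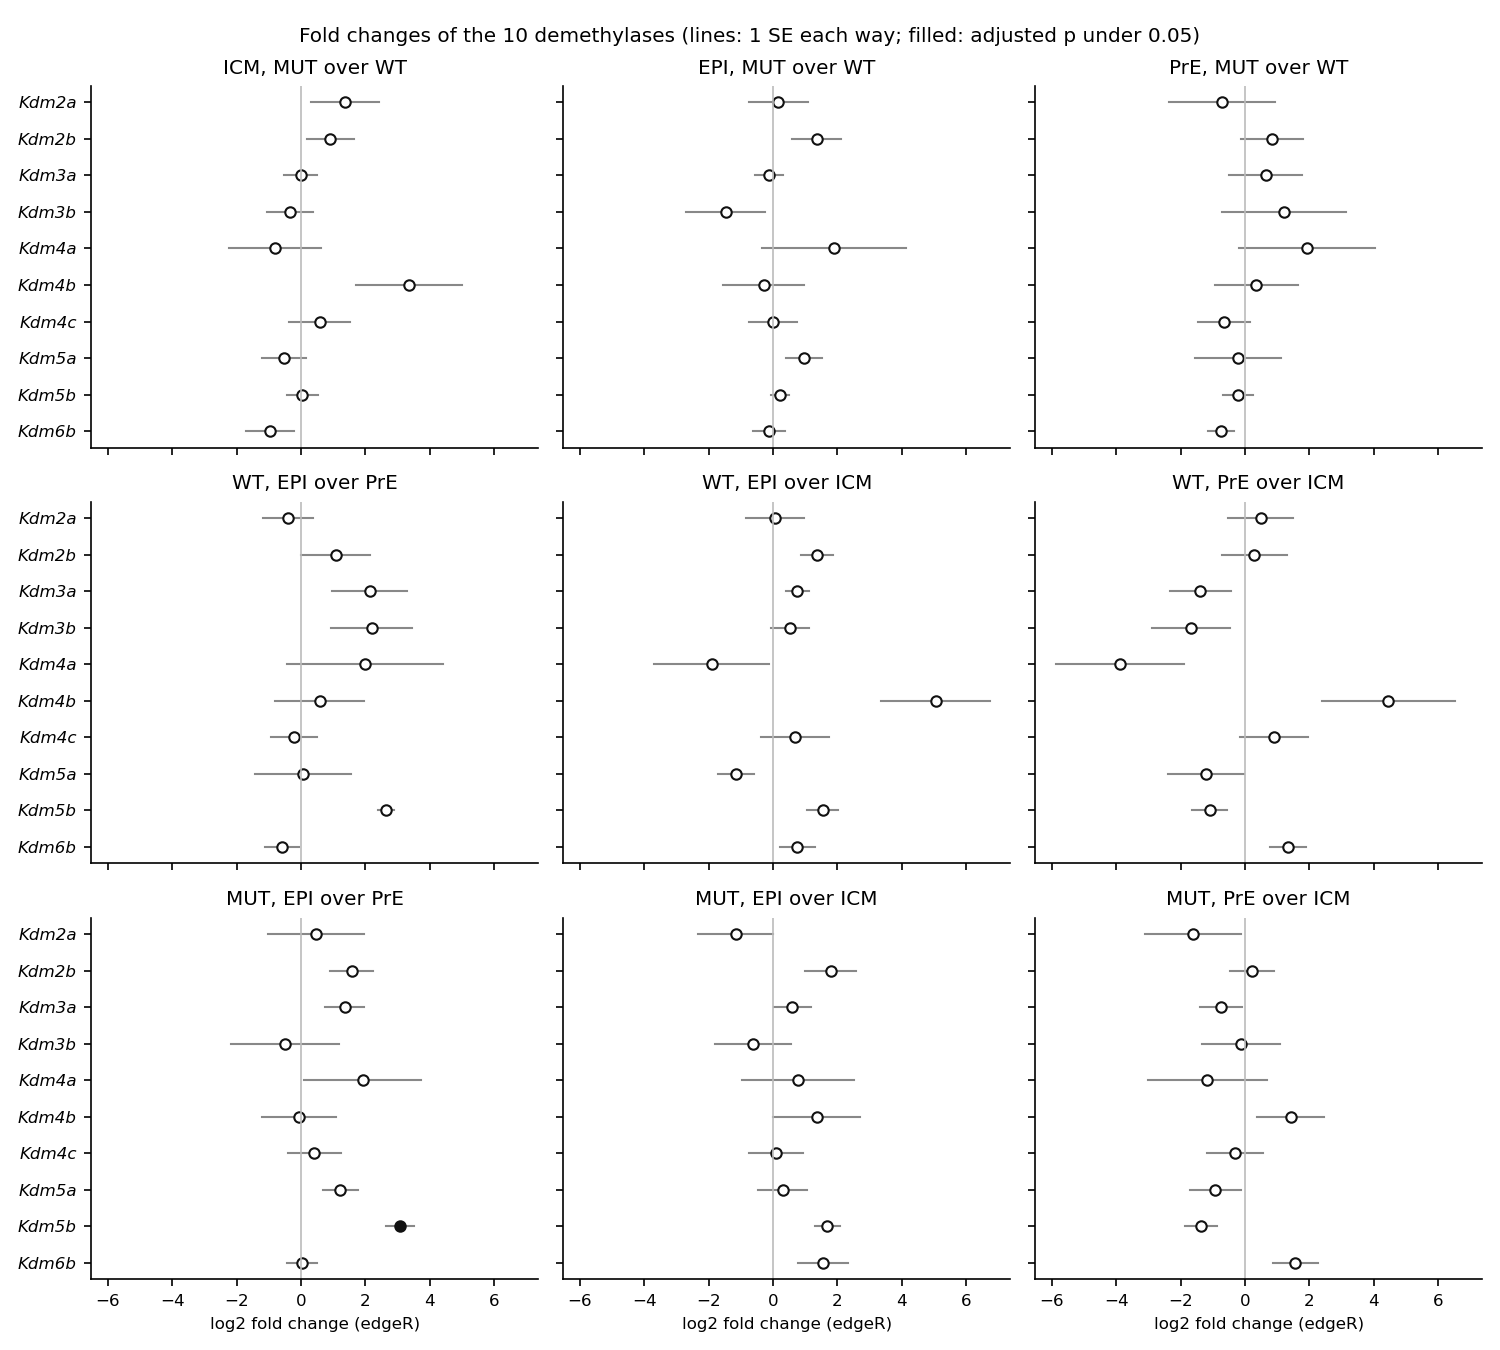
Log2 fold changes of the 10 demethylases by edgeR in 9 comparisons, with lines of 1 SE each way and filled points for an adjusted p under 0.05. The filled point is Kdm5b in MUT EPI over PrE (3.07), and the Kdm5b point in WT EPI over PrE (2.65) has a short line but is open.

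Other genes of histone methylation were read from 7 lists of 55 genes: further JmjC genes, flavin-dependent demethylases, methyltransferases for H3K4, H3K9, H3K27 and H3K36, and the Polycomb partners of KDM2B. Of these genes only Jarid2 passed in any comparison. It was 1 of 49 list genes tested in EPI against PrE of MUT, where 1.65% of all genes tested were called. Jarid2, a JmjC protein without demethylase activity that works with Polycomb complexes, was higher in EPI than in PrE of MUT (log2 1.12, edgeR adjusted p = 0.0494). It stood at 332 to 488 CPM in EPI and 143 to 235 in PrE. That fit does not pair EPI and PrE of the same embryo. With the embryo as a block, 74 genes were called there instead of 177, and the value of Jarid2 under it is not given here. In WT it stood at 365 to 382 CPM in EPI and 139 to 237 in PrE (log2 0.99; edgeR adjusted p = 0.231). In the ICM between genotypes, 6 of 6 H3K9 methyltransferases had a log2 fold change above 0 (median 0.46). There, 8 of 8 partners of KDM2B had one below 0 (median -0.46), beside a median of -0.05 for all genes tested. No member of either list passed. Both lists were singled out from the 7 with their values seen, and their members share embryos, so these counts carry no test. Over all 7 lists, 25 of 51 genes tested were above 0 in that comparison, beside 47.6% of all genes tested. H3K4 methyltransferases had 8 of 10 members above 0 in EPI against PrE of WT (median 0.87) and 9 of 10 in MUT (median 0.60). None of them passed the threshold, and this list was singled out in the same way. Over all 7 lists, 36 of 50 genes tested were above 0 in WT and 34 of 49 in MUT, beside 51.7% and 50.8% of all genes.

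The gene with the smallest p of each list, in the order just given, differed between comparisons. Between genotypes these were Riox1, Kdm1b, Kmt2b, Setdb2, Suz12, Setd2 and Pcgf1 in the ICM. In EPI they were Kdm5c, Kdm1b, Kmt2a, Suv39h1, Eed, Setd2 and Bcor, and in PrE Jmjd7, Kdm1a, Ash2l, Suv39h2, Ezh2, Nsd2 and Rnf2. Their edgeR adjusted p values were 0.749 or higher in all 3. The fits behind these names hold no term for embryo sex, which largely coincides with genotype at E3.75. Between EPI and PrE they were Jarid2, Kdm1b, Wdr5, Setdb1, Eed, Setd2 and Usp7 in WT (edgeR adjusted p from 0.224 to 0.961), and Jarid2, Kdm1a, Wdr5, Suv39h1, Suz12, Nsd2 and Usp7 in MUT. From ICM to EPI they were Jarid2, Kdm1b, Kmt2d, Ehmt1, Suz12, Setd2 and Usp7 in WT (edgeR adjusted p from 0.0671) and Uty, Kdm1a, Kmt2d, Suv39h1, Ezh1, Nsd1 and Usp7 in MUT (from 0.470). Uty is among the Y-linked genes by which embryo sex was read. Of the MUT embryos, 1 of 5 was male in the ICM and 4 of 4 in EPI. From ICM to PrE they were Jmjd7, Kdm1b, Ash2l, Suv39h2, Suz12, Setd2 and Usp7 in WT (edgeR adjusted p from 0.0596) and Phf2, Kdm1a, Kmt2c, Setdb2, Ezh2, Nsd2 and Pcgf1 in MUT (from 0.426). For the difference of the lineage change between genotypes they were Jmjd7, Kdm1a, Kmt2a, Suv39h1, Ezh1, Setd2 and Rnf2. For that of the stage change they were Kdm5c, Kdm1b, Kmt2a, Suv39h1, Suz12, Setd2 and Rybp in EPI and Jmjd7, Kdm1b, Ash2l, Setdb2, Ezh2, Nsd2 and Usp7 in PrE, with edgeR adjusted p values from 0.443.

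Among other genes with a mean of at least 10 CPM, the one whose log2(CPM + 1) followed each demethylase most closely over the 24 sums was found by Pearson's correlation among 7935 candidates. It was Cobl for Kdm5b (r = 0.85), Nfx1 for Kdm5a (0.86), Tfrc for Kdm3a (0.86), Gstm1 for Kdm3b (0.76), Pwp2 for Kdm2b (0.81) and Slc25a36 for Kdm2a (0.71). For Kdm4a, Kdm4b, Kdm4c and Kdm6b it was Zfp54 (0.74), Tent2 (0.77), Ptdss2 (0.74) and Zfp36l1 (0.80). Within the family, the 45 pairs had correlations from -0.38 to 0.81 (median 0.13), the highest being Kdm3a with Kdm5a. Over single ICM cells the pairs had Spearman values from -0.24 to 0.50 in MUT (median 0.14) and from -0.20 to 0.30 in WT (median 0.05). The points share libraries, depth and lineage, and these values are descriptions.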

How the data were processed

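RNA of 171 single cells was measured. The authors deposited 1 table of whole-number read counts per gene, made with STAR and HTSeq on mm10 per the submitters' processing notes, with no version, strand setting or library protocol stated. Of 49671 identifiers, 49412 were paired with GENCODE M21 symbols, and the rest held 0.0101% of counts. Groups came from titles and genotype labels. Counts were summed per embryo and lineage, taking the number after the genotype in the title as the embryo. Sums were tested with edgeR 4.0.16 in R 4.3.3 (robust quasi-likelihood fit after TMM scaling, genes kept by filterByExpr at minimum count 10; SE computed as the fold change over the root of F), with Benjamini-Hochberg adjustment over all genes and a threshold of 0.05. Alternatives were DESeq2 size factors, no filter, DESeq2 1.42.0, limma-trend (limma 3.58.1), removal of 7 cells over 3 median absolute deviations below their stage's depth, embryo sex, an embryo block, and leaving out each sum. EPI and PrE of 1 embryo are paired by design; their deviations correlated at 0.12 to 0.21 in WT and 0.02 to 0.12 in MUT. The edgeR and DESeq2 fits were tested on simulated sums of 4 of the comparisons. Few of edgeR's calls were false and many of DESeq2's were, so DESeq2 is given only as an alternative. The simulated counts were drawn with edgeR's own scaling and dispersions, which favours edgeR. EPI against PrE of MUT was not among the comparisons simulated, and limma-trend was not simulated. Cells held no molecular identifiers in the table, so limits on counts of 0 cover counting error only. All 10 demethylases are named in each comparison, with those list genes that passed, or where none did the list's smallest p, and the most correlated gene. The demethylases and lists were chosen with earlier results of these data known.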

Additional observations from a re-analysis of the deposited data

Results flagged for a closer look

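The embryo sums of 1 demethylase in 1 group gave 40 sets of 4 or 5 values. In 7 of these sets the highest value stood apart by a gap that is large against the range of the set. The cutoff flags about 1 in 20 sets only if values are independent and normally distributed. CPM values over few cells are skewed and the sets share embryos, so the 7 flags do not measure an excess over chance. In MUT ICM, embryo 10 stood apart for Kdm2b (97.6 CPM, next 26.6) and for Kdm4b (17.2, next 4.48). In WT ICM, embryo 22 stood apart for Kdm4a (24.8 CPM, next 4.43) and for Kdm5a (115.6, next 46.0), and embryo 20 for Kdm4b (2.17, next 0.42). In MUT EPI, embryo 5 stood apart for Kdm3a (239.9 CPM, next 98.3) and for Kdm4b (50.1, next 3.34).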

How the results depend on the processing

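The main limits are 3 to 5 embryos per group, 2 sums of 1 cell each, and few reads of Kdm4a and Kdm4b. Of 573 log2 fold changes of single demethylases under the alternatives that keep all sums, 524 kept their direction and their side of the threshold. The number of demethylases called in EPI against PrE of WT went from 0 to 1 (Kdm5b) with DESeq2 size factors, no filter on low counts, DESeq2 and limma-trend, and was 0 to 1 when sums were left out in turn. In MUT it went from 1 to 0 with the embryo as a replicate block, which changed no other call of a demethylase. It was 2 between genotypes in PrE with embryo sex, 5 from ICM to EPI of WT with limma-trend, 1 in MUT with DESeq2 and 1 with limma-trend, and 3 from ICM to PrE of WT with limma-trend (Kdm2a, Kdm4c and Kdm6b). Limma-trend moved the median of all genes up in the stage comparisons. In WT from ICM to EPI it was 0.68 with limma-trend and -0.14 with edgeR.

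The signs that reversed were all of values that had not passed the test, and the cause was not tested. Between genotypes, the embryo number as a replicate block matches different embryos by their number only. Numbers 1 and 2 alone occur in both genotypes, so its values rest on these embryos. MUT embryos 4 and 5 and WT embryo 3 do not inform that difference. Between genotypes in the ICM, Kdm3a became 0.053 with DESeq2 size factors, 0.053 with DESeq2 and 0.011 without low-depth cells. In EPI, embryo sex gave -0.092 for Kdm2a, 0.21 for Kdm4b, -0.050 for Kdm5b and 0.61 for Kdm6b; the embryo number as a replicate block gave -0.14 for Kdm2a, -0.57 for Kdm2b and -0.62 for Kdm4c; no filter gave -0.038 for Kdm4c and limma-trend 0.016 for Kdm6b. In PrE, that replicate block gave -0.47 for Kdm4a and -0.44 for Kdm4b, embryo sex 7.97 for Kdm5a and 0.013 for Kdm6b, and limma-trend 0.75 for Kdm5a. Between lineages of MUT, the embryo itself as a block gave 0.13 for Kdm3b and limma-trend 0.24 for Kdm4b. From ICM to EPI, limma-trend gave 0.52 for Kdm5a in WT and 0.44 for Kdm2a in MUT, where embryo sex gave 0.27 for Kdm2a, 0.14 for Kdm3b and -0.63 for Kdm4c. From ICM to PrE of WT, embryo sex gave -0.67 for Kdm2b and limma-trend 0.33 for Kdm5b. In MUT, limma-trend gave 0.12 for Kdm3a, 0.021 for Kdm3b, 0.96 for Kdm4c and 0.54 for Kdm5a, and embryo sex 0.71 for Kdm3b, 9.34 for Kdm4a and 0.29 for Kdm5a.

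With single sums left out, the sign changed for these ranges. Between genotypes in the ICM they were -0.33 to 0.21 for Kdm3a, -2.16 to 0.46 for Kdm4a and -0.19 to 0.23 for Kdm5b. In EPI they were -0.26 to 0.37 for Kdm2a, -0.64 to 0.078 for Kdm3a, -2.64 to 0.17 for Kdm4b, -0.38 to 0.90 for Kdm4c, -0.086 to 0.35 for Kdm5b and -0.38 to 0.46 for Kdm6b. In PrE they were -0.21 to 0.82 for Kdm4b, -0.79 to 0.25 for Kdm5a and -0.66 to 0.027 for Kdm5b. Between lineages they were -0.013 to 4.68 for Kdm4a, -1.12 to 0.12 for Kdm4c and -0.53 to 0.52 for Kdm5a in WT, and -1.09 to 0.36 for Kdm3b, -2.41 to 0.29 for Kdm4b and -0.15 to 0.21 for Kdm6b in MUT. From ICM to EPI they were -0.15 to 0.55 for Kdm2a and -0.23 to 1.13 for Kdm4c in WT, and -0.037 to 2.16 for Kdm4a, -0.97 to 2.36 for Kdm4b and -0.29 to 0.38 for Kdm4c in MUT. From ICM to PrE they were -0.49 to 0.86 for Kdm2b in WT, and -0.016 to 1.07 for Kdm2b, -1.01 to 0.30 for Kdm3b and -1.70 to 0.20 for Kdm4a in MUT.

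Over all genes, calls depended on the tool, and DESeq2 made many false calls on simulated sums. EdgeR called 4 genes in EPI against PrE of WT, against 727 with DESeq2, 32 with no filter, 7 with limma-trend or DESeq2 size factors and 0 with the replicate block; in MUT it called 177, against 631 with DESeq2, 321 with limma-trend and 74 with the block. Between genotypes it called 0, against 108, 187 and 157 with DESeq2 in ICM, EPI and PrE, 3 in the ICM with no filter, and 217 in PrE with embryo sex. From ICM to EPI it called 43 in WT (1069 with DESeq2, 4048 with limma-trend, 85 with no filter, 11 with embryo sex) and 8 in MUT (414, 223, 22 and 1). From ICM to PrE it called 46 in WT (1198, 2071, 118 and 12) and 61 in MUT (556, 630, 108 and 59). DESeq2 called 333, 501 and 533 genes in the interaction contrasts, where edgeR called 0.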
